A study of Mus musculus with 4 samples.

Results

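Trh, the gene for the precursor of thyrotropin-releasing hormone (TRH), was examined in mouse embryonic stem cells (ESCs) with and without Snf2l. Trh (Entrez gene 22044) is 1 of 24594 genes in the count table and 1 of the 13840 that had enough counts to be tested. It was selected by its measured values, namely its high level in wild-type (WT) cells and its fall in the knockout, so both are given below as a description and without a test. The knocked-out gene Snf2l is Smarca1 in gene nomenclature and encodes an ISWI remodeler ATPase, a motor that moves nucleosomes.

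The data were 4 poly(A) RNA-seq libraries of ESCs of a 129S6/SvEvTac line, with 2 libraries of WT cells and 2 of Snf2l_KO cells. No group received a treatment, and the labels describe the libraries as 1 batch. All cells were grown with serum and LIF on gelatin, according to the study's methods. Mutant lines were made by Cas9 editing, and each mutant genotype was represented by 1 clone, so that genotype and clone cannot be told apart. The study's methods call the replicates of a genotype independent and biological, without saying at which step they were separated. P-values set the difference between the genotypes against the spread between these libraries. That spread is estimated for each gene with help from the other genes, and it does not cover other clones.

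TRH is a tripeptide best known from the hypothalamus, where neurons of the paraventricular nucleus release it to drive secretion of thyrotropin from the pituitary. It is made from a long precursor that holds several copies of the sequence Gln-His-Pro-Gly, each flanked by pairs of basic residues. Proprotein convertases cut at the basic pairs, a carboxypeptidase trims the ends, glutaminyl cyclase closes the first residue into pyroglutamate, and the glycine is turned into the terminal amide. The hormone acts through G protein-coupled receptors and is degraded by a membrane peptidase that is specific to it.

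In the GRCm38 annotation Trh lies on the minus strand of chromosome 6 (92242061 to 92244650) and has 3 exons. Its length in the count table is 1384 bp, equal to the summed exon length of the GENCODE transcript. The open reading frame has 256 codons before the stop, and it holds 5 copies of the codons for Gln-His-Pro-Gly, all of them in exon 3. These 5 stretches are shown because they are the parts of the transcript from which the hormone is made. Capitals mark the 12 bases that code for Gln-His-Pro-Gly, and the codons of the flanking basic pairs are in lower case. The stretches are read on the minus strand, 5′ to 3′.
TRH unit 1, chr6:92243088-92243111, codons 75 to 82: aaacgcCAGCATCCGGGCaaaagg
TRH unit 2, chr6:92242992-92243015, codons 107 to 114: aaacgaCAGCACCCTGGCcgacgt
TRH unit 3, chr6:92242857-92242880, codons 152 to 159: aagcggCAGCACCCTGGCaggcga
TRH unit 4, chr6:92242803-92242826, codons 170 to 177: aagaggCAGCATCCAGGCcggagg
TRH unit 5, chr6:92242710-92242733, codons 201 to 208: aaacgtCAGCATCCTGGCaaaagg
The reads were counted per gene, so the level of Trh given below covers all 3 exons and does not resolve these units.

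The promoter is shown because the level of Trh RNA is what differed between the genotypes. The 250 bases upstream of the start site, from RefSeq on GRCm38.p6 (chr6:92244651-92244900, minus strand, 5′ to 3′), carry in capitals a TATAA match and a TGACCTCA match.
Trh promoter: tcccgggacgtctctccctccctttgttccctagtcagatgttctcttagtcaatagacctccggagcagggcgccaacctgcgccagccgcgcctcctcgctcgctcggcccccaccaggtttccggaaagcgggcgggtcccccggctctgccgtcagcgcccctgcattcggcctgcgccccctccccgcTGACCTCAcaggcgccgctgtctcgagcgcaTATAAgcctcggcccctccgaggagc
TATAA, the core of the TATA box, lies at -26 to -22 from the start site. TGACCTCA, which resembles the cAMP response element TGACGTCA, lies at -57 to -50. Both lie on the strand of the gene and do not overlap, and TGACGTCA itself has no match in the window. Searched on both strands in 32851 promoter windows of the same length, TATAA occurred in 22.8%, TGACCTCA in 1.94% and TGACGTCA in 1.55%. The motifs were chosen after the window had been read. The Trh window has a GC content of 68.8%, against a median of 52.4%, and 11% of the windows reach that value or more. It contains 25 CpG dinucleotides, with an observed over expected ratio of 0.899.

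The libraries held between 13771642 and 15608803 counts. At this depth 3 counts, taken here as the limit of detection per library, corresponded to between 0.191 and 0.220 CPM (counts per 1000000 of the TMM-scaled library size). The targeted gene matched the labels of all 4 libraries. Smarca1 had 620 and 626 counts in WT against 37 and 31 counts in the knockout (quasi-likelihood test of edgeR, p-values adjusted by Benjamini-Hochberg, log2 fold change -4.30, SE 0.159, adjusted p = 2.65e-10). All 10 ESC markers examined were detected in every library, and their summed level ranged from 4860 to 5209 CPM in WT and from 5203 to 5411 CPM in the knockout.

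Trh was among the most abundant transcripts of WT ESCs and was present at 44.8% of that level in the knockout. The WT libraries had 5228 and 6253 Trh counts, and the knockout libraries had 2828 and 2687. Per 1000000 counts in the table, WT replicate 1 had 379.6 Trh counts (95% Wilson interval 369.5 to 390.0) and WT replicate 2 had 407.3 (397.3 to 417.5). On the same scale the knockout replicates had 181.2 (174.6 to 188.0) and 175.7 (169.2 to 182.5). Both knockout libraries were far below both WT libraries, and the 2 intervals of the knockout overlapped each other while those of WT did not. PCR copies are not independent molecules, so the intervals describe the error of counting alone.

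On the CPM scale the Trh level was 396.0 ± 16.9 in WT and 177.5 ± 3.82 in the knockout (SD, n = 2 each), a loss of 218.5 CPM. The difference was 2.23-fold. The fitted log2 fold change was -1.16 (SE 0.0864). For a gene chosen by its fall, this SE describes the fit and is not a test. Each of the 4 possible pairs of a knockout and a WT library gave a log2 ratio between -1.22 and -1.09, or between 42.9% and 46.9% of the WT library. For comparison, the 2 libraries of a genotype differed in Trh by 0.087 on the log2 scale in WT and by 0.044 in the knockout. The biological coefficient of variation estimated for Trh was 0.0704, against 0.0745 for all genes in common. The estimate for a single gene is drawn toward the values of the other genes, so this closeness is partly built in. In bulk RNA, fewer Trh-expressing cells and less Trh RNA in each cell cannot be told apart.

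Levels of different genes are compared here per kb of gene length. The length is the one given with the counts, and for Trh it equals that of its transcript. For other genes it was not compared with their transcripts, and a longer length lowers the level per kb. In CPM, without this division, Trh ranked 374 of 13840 tested genes in WT. Trh had 286.1 ± 12.2 CPM per kb in WT and ranked 81 of 13840 tested genes, and with 128.3 ± 2.76 CPM per kb in the knockout it ranked 301. Of the 10 ESC markers, 2 had a higher level per kb in WT. These were Dppa5a, which codes for an RNA-binding protein of early embryonic cells, with 1024 CPM per kb, and Pou5f1, the gene for the pluripotency factor OCT4, with 561. Zfp42, the gene for the ESC marker REX1, was next below Trh with 270.3 ± 6.09 CPM per kb, and the gap between these means was little more than the SD of Trh. Utf1 had 231 CPM per kb, Sox2 213, Nanog 207 and Tdgf1 197, all below both WT values of Trh. Esrrb (96.0), Fgf4 (71.6) and Klf4 (40.2) had lower levels still.

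In the knockout Trh stood between Zfp42 (179 CPM per kb) and Esrrb (106), below 7 of the 10 markers. The level of Nanog was 207 CPM per kb in both genotypes and its log2 fold change was 0.00056 (SE 0.0823). Sox2 (-0.044, SE 0.0815) and Pou5f1 (0.064, SE 0.0842) had fitted differences smaller than their standard errors. Of the 10 markers 1 rose, namely Klf4 (0.34, adjusted p = 0.0359 in edgeR), and 1 fell, namely Zfp42 (-0.60, adjusted p = 3.80e-04). Over all tested genes 9.21% had an adjusted p-value under 0.05. Zfp42 is a chromosome 8 gene, and 453 of the 754 tested genes of that chromosome were lower in the knockout at this threshold.

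**Figure D1:**
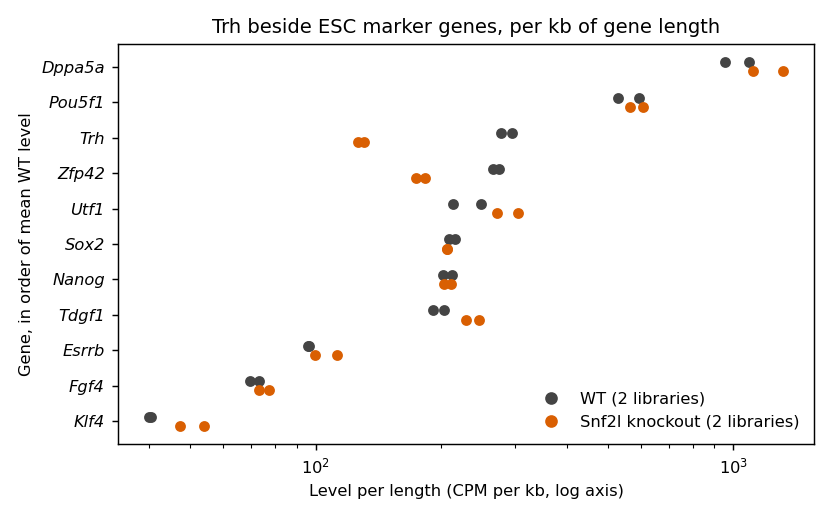
Level per kb of gene length of Trh and 10 ESC marker genes in WT and knockout, on a log axis; points are the 4 libraries. Trh lies below Dppa5a and Pou5f1 in WT and below 7 markers in the knockout.

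Markers of other cell types were examined beside Trh, because TRH is best known as a neuronal hormone. Of the 9 genes of hypothalamic neurons, Otp had 0 counts in every library, and Sim1 and Nkx2-1 had at most 2 and 1 counts. The summed level of the 9 genes was 484 to 559 CPM in WT and 454 to 493 CPM in the knockout, carried by Stmn2 and by Tubb3, a chromosome 8 gene that fell (-0.61, adjusted p = 1.18e-03 in edgeR). Of 8 primitive endoderm genes, 6 were tested and 4 rose, and their sum went from 16.2 to 17.3 CPM in WT to 27.3 to 27.7 CPM in the knockout, with Afp at 0 counts throughout. Of 7 fibroblast genes, 5 were tested and 2 rose, and their sum went from 11.3 to 13.4 CPM to 24.96 to 25.8 CPM, with Lum at 0 counts. Over all tested genes 4.0% rose. The part of these shifts in the level of Trh was not tested.

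Differentially expressed genes (DEGs) were those that differed by over 1 on the log2 scale with an adjusted p-value below 0.01, the criterion of the study, and 137 genes (0.990% of those tested) met this threshold, with 58 lower and 79 higher in the knockout. Trh is counted among them by the values it was chosen on, and nothing is read from that. No DEG had a higher WT level than Trh, in CPM or per kb, and in CPM Trh ranked 374 of all tested genes. The other DEGs with the highest WT values were Mest (181 CPM in WT, 11.8 in the knockout), Phlda2 (82.7 and 25.9) and Ccnd2 (81.5 and 36.5), named after their values were seen. Mest and Phlda2 are imprinted genes, and Ccnd2 codes for cyclin D2. Among the 2567 genes with over 100 CPM in WT, Mest and Trh were the only ones more than 2-fold lower in the knockout. For Trh this restates the level and fall it was chosen on.

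Genes with a WT level close to that of Trh were set beside it, since their counts have a like precision. These were the 50 tested genes just above and the 50 just below it, with 373.8 to 433.8 CPM in WT. Of the 100 genes 0 were DEGs, against 0.990% of all tested genes. At an adjusted p-value under 0.05, 8 were lower and 3 higher (edgeR, background 5.21% and 4.0%). An unadjusted p-value under 0.05 was obtained for 27, against 22.2% of all tested genes. Their median log2 fold change was -0.019, the quartiles were -0.11 and 0.072, and the range was -0.76 to 0.42. Over all tested genes the median was 0.00020 and the quartiles were -0.15 and 0.15. Trh with its -1.16 lay outside the whole range of these 100 genes, which describes the fall it was chosen on.

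Of the 8 lower genes 7 lie on chromosome 8, and these 7 are all the chromosome 8 genes in the set. The lowest was Urb2, a ribosome biogenesis gene, which retained 59.0% of its WT level (log2 fold change -0.76). Among the 93 genes outside chromosome 8 the lowest was Tns3 (-0.37), the gene for the focal adhesion protein tensin-3, which retained 77.5%. The highest was Asns (0.42), the gene for asparagine synthetase. Of these 93 genes 4 were called, 1 lower and 3 higher. Over all tested genes 5.21% were lower and 4.0% higher, and 453 of the 721 lower genes lie on chromosome 8. The share of falls outside chromosome 8 is therefore smaller than 5.21%. The number of called genes among the 100 changed when WT replicate 2 or knockout replicate 1 was left out. For those fits the share over all tested genes was not counted.

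The 4 genes adjacent to Trh in WT CPM were examined library by library. Ruvbl2, which codes for a AAA+ ATPase of the INO80 and TIP60 complexes, had 380 and 413 CPM in WT against 464 and 485 CPM in the knockout (0.26, adjusted p = 0.0741 in edgeR, and 0.0290 without knockout replicate 1). Rnf10, a ubiquitin ligase gene, had 395 and 398 CPM in WT against 395 and 407 CPM in the knockout. Polr2b, which codes for the second-largest subunit of RNA polymerase II, had 406 and 386 CPM against 396 and 385 CPM. Bub1b, a spindle checkpoint gene, had 403 and 389 CPM against 412 and 370 CPM. The groups of Ruvbl2 did not overlap, with the knockout higher, and those of the other 3 genes overlapped. Among all 13840 tested genes, 3488 had both knockout libraries above both WT libraries and 3499 had the reverse.

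**Figure D2:**
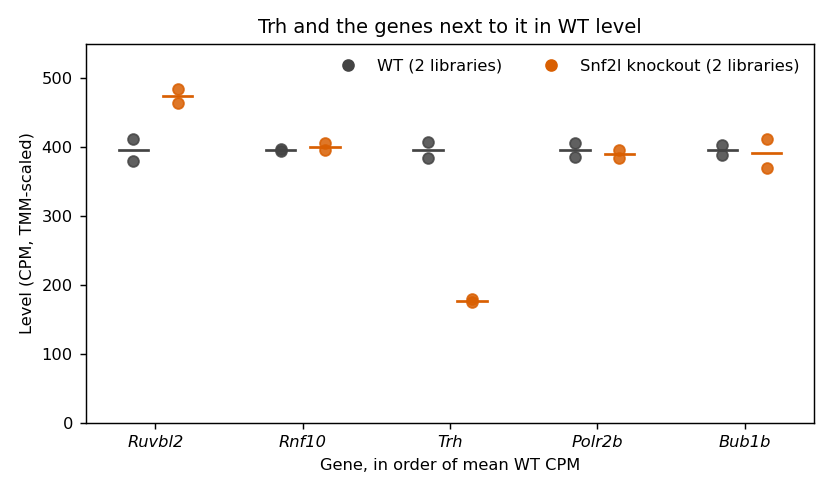
Level in CPM (TMM-scaled) of Trh and of the 2 genes on each side of it in mean WT CPM; points are single libraries, 2 for each genotype, and lines are the means. The 5 genes have like WT levels, and in the knockout Trh alone lies near 180 CPM, with libraries at 180 and 175.

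The spread between the libraries of a genotype was near the middle of that of the 100 genes for Trh in WT and in the lower part in the knockout. Among the 100 genes the median difference between replicates was 0.084 on the log2 scale in WT and 0.11 in the knockout. A difference at least as large as that of Trh was found in 48 of the 100 genes in WT and in 80 in the knockout.

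**Figure D3:**
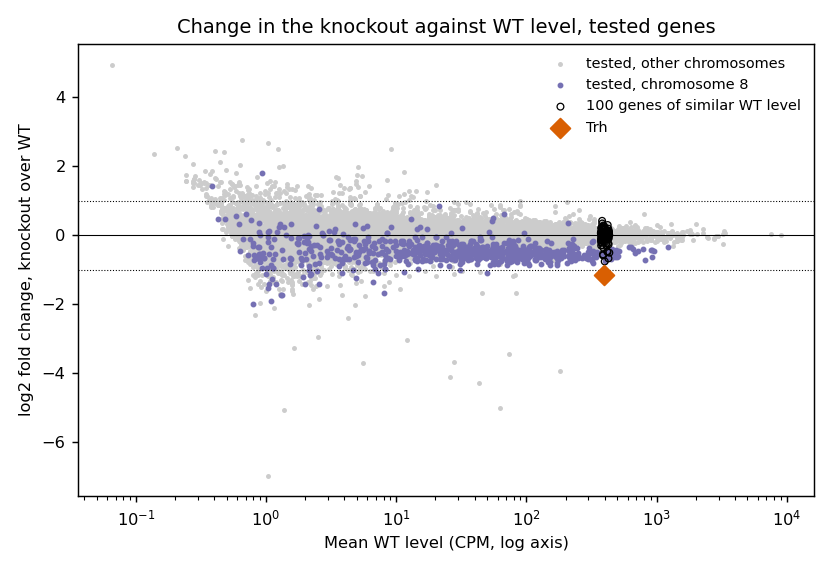
Log2 fold change (knockout over WT) against mean WT level in CPM (log axis) for the tested genes, with chromosome 8 genes in purple, the 100 genes of similar WT level as open circles and Trh as a diamond; dotted lines mark 1 and -1. Trh lies at -1.16, below the lowest of the 100 genes at -0.76.

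The loss of Trh in CPM combines the WT level and the fall on which it was chosen, so its place among other genes is a description only. In CPM, 8 genes lost more than the 218.5 CPM of Trh, and 6 of them are on chromosome 8. These were Abce1 (328.5 CPM), Cnot1 (326.4), Sf3b3 (264.4), Aars (252.6), Mcm5 (241.1) and Calr (230.7), genes of ribosome recycling, mRNA deadenylation, splicing, tRNA charging, DNA replication and protein folding. The remaining 2 are on chromosome 11, namely Npm1, the gene for nucleophosmin, with a loss of 499.6 CPM, and Mybbp1a, the gene for a nucleolar protein, with 271.0 CPM. All 8 had higher WT levels in CPM than Trh and retained 60.3% to 84.5% of them.

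For Npm1 the difference did not pass the test (log2 fold change -0.24, adjusted p = 0.0779 in edgeR), but it passed without knockout replicate 2 (-0.34, adjusted p = 3.62e-04). For Mybbp1a it did (-0.32, adjusted p = 0.0227), but not without WT replicate 1, WT replicate 2 or knockout replicate 2. Per kb of length, Npm1 alone lost more than Trh, with 187 against 158 CPM per kb.

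The genes whose levels over the 4 libraries were most like those of Trh all lie on chromosome 8. Likeness was measured as the Euclidean distance of log2 CPM over the 4 libraries. It therefore reflects both level and change, the values on which Trh was chosen. Chromosome 8 held 754 of the 13840 tested genes, and 453 of the 721 that were lower in the knockout at an adjusted p-value under 0.05 (edgeR). The closest was Cyb5b, which codes for an outer mitochondrial membrane cytochrome, at a distance of 0.421. It had 327 and 322 CPM in WT against 191 and 178 CPM in the knockout (log2 fold change -0.81). Itgb1, the gene for integrin beta-1, was at 0.494, with 330 and 304 CPM in WT against 191 and 188 CPM in the knockout (-0.74). Mbtps1 (distance 0.528, -0.65), Pcm1 (0.561, -0.70) and Urb2 (0.602, -0.76) came next. Their products are the site-1 protease, a centriolar satellite protein and a ribosome biogenesis factor. All 5 fell less than Trh, and the first 4 also had a lower WT value.

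Whether genes beside Trh differed too was examined in the 10 tested genes on each side of it, which span 5.71 Mb of chromosome 6. Of these 20 neighbours 0 were DEGs, against 0.990% of all tested genes. At an adjusted p-value under 0.05, 1 of the 20 fell, against 5.21% of all tested genes. Of the 721 falls behind that share, 453 were on chromosome 8. Unadjusted p-values under 0.05 were obtained for 4 of the 20, close to the 22.2% of all tested genes. The log2 fold changes ranged from -0.38 to 0.71 with a median of -0.066, and 12 of 20 were below 0. The median was -0.098 on the side of the 3′ end of Trh and -0.012 on the side of its promoter. No gene of the table overlaps Trh, and of 19 genes within 1 Mb of it 15 were tested.

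Rbsn, which codes for the endosomal protein rabenosyn-5, is the nearest tested gene, 27.2 kb from the 3′ end of Trh. It had 863 and 956 counts in WT against 891 and 742 counts in the knockout, and 62.9 and 52.5 CPM on average (log2 fold change -0.26, SE 0.104, adjusted p = 0.153 in edgeR). Mrps25, a mitochondrial ribosomal protein gene at 58.0 kb, had a log2 fold change of -0.015 (adjusted p = 0.951). Nr2c2, which codes for the nuclear receptor TR4 and lies at 69.0 kb, had -0.12 (adjusted p = 0.637). Both WT libraries lay above both knockout libraries in 7 of the 20 neighbours and in 3499 of all 13840 tested genes. Rbsn was 1 of these (63.4 and 62.4 against 56.8 and 48.3 CPM), and its fitted value was farther from 0 than those of Mrps25 and Nr2c2. Its value was -0.38 without knockout replicate 1, where it passed the test (adjusted p = 0.0200 in edgeR), and -0.15 without knockout replicate 2 (0.586).

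On the promoter side the nearest tested gene was Prickle2, a planar cell polarity gene at 126.2 kb. Its counts were low, with 11 and 18 in WT against 36 and 15 in the knockout, and the groups overlapped (0.71, SE 0.413, adjusted p = 0.347 in edgeR). Adamts9, a metalloprotease gene at 528.0 kb, had 14.5 CPM in WT and 17.9 in the knockout (0.30, adjusted p = 0.164). Magi1, which codes for a scaffold protein of cell junctions at 1430.8 kb, had 28.3 and 34.8 CPM (0.30, adjusted p = 0.114). The fitted values of these 3 genes were above 0, opposite to that of Trh, and none passed the test. Prickle2 passed it without knockout replicate 2 (1.19, adjusted p = 0.0470).

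The neighbour that fell was Slc6a6, the gene for the taurine transporter, 483.0 kb from Trh on the 3′ side. It had 2844 and 3036 counts in WT against 2653 and 2191 counts in the knockout, or 203.5 ± 7.67 and 155.8 ± 18.8 CPM (log2 fold change -0.38, SE 0.0982, adjusted p = 0.0219 in edgeR). The call was lost without WT replicate 1 (adjusted p = 0.173), WT replicate 2 (0.0555) or knockout replicate 2 (0.131).

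On chromosome 6 as a whole, 55 of 634 other tested genes passed an adjusted p-value of 0.05, against 9.21% of all tested genes. Lower were 17 and higher 38, against 5.21% and 4.0% of all tested genes. The 5.21% includes chromosome 8, where 453 of the 721 falls lie, so the share outside it is smaller. The median log2 fold change of the 634 genes was 0.018. Of the 634 genes, 8 were DEGs, 3 lower and 5 higher, against 0.990% of all tested genes. The nearest DEG to Trh was the transcript 4933427D06Rik, 3.13 Mb away (-1.72). The other lower DEGs, Ccnd2 and Mest, are 34.9 Mb and 61.5 Mb away.

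**Figure D4:**
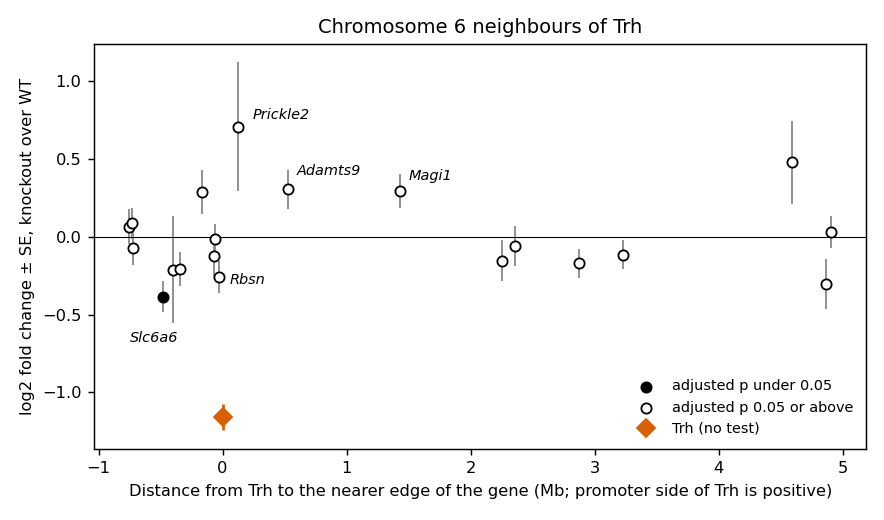
Log2 fold change (knockout over WT) with SE of the 10 tested genes on each side of Trh, against the distance from Trh to the nearer edge of the gene in Mb, with the promoter side of Trh as positive. Slc6a6 at -0.38 is the only filled point, and the SE bar of no neighbour reaches the value of Trh.

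The genes that turn the TRH precursor into hormone, receive it and degrade it were examined as a list of 17. Of these 10 were tested, and 6 were at 3 counts or fewer in every library. The receptor gene Trhr had 0, 0, 2 and 0 counts and the second mouse receptor gene, Trhr2, had 0 counts throughout. The degrading enzyme gene Trhde and the pituitary hormone genes Tshb and Prl also had 0 counts, which allows up to 0.220 CPM in the shallowest library. Transcripts of the receptors and of the specific peptidase were therefore not detectable at this depth, beside a precursor transcript at 396.0 CPM.

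Among the maturation enzymes, the convertase genes Pcsk1 and Pcsk2 were scarce. Pcsk2 had 1, 5, 4 and 13 counts and was not tested, and Pcsk1 had 22 and 12 counts in WT against 29 and 31 in the knockout (log2 fold change 0.71, adjusted p = 0.242 in edgeR). The ubiquitous convertase gene Furin (0.17) and the amidating enzyme gene Pam (0.18) had 151 to 224 and 149 to 205 counts. The carboxypeptidase gene Cpe, on chromosome 8, had 179 and 153 counts in WT against 98 and 135 in the knockout (-0.62, adjusted p = 0.0518). The highest WT levels per kb of the list were those of the peptidase genes Prep (12.8 CPM per kb) and Pgpep1 (4.57) and of Pcsk1n (5.83).

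Of the 10 tested genes 2 rose and 0 fell, and the median log2 fold change was 0.064. Pcsk1n, which codes for proSAAS, an inhibitor of the convertase PC1/3, had 168 and 203 counts in WT against 295 and 344 in the knockout (0.68, SE 0.135, adjusted p = 4.41e-03). Qpctl, the gene for the Golgi form of glutaminyl cyclase, had 75 and 81 counts in WT against 135 and 118 in the knockout (0.59, SE 0.166, adjusted p = 0.0352). Qpctl lost the call without WT replicate 1 (0.100), WT replicate 2 (0.160) or knockout replicate 1 (0.0829), and in DESeq2 (0.237). Prep, a cytosolic enzyme that can cleave TRH, had 140 CPM in WT and 117 in the knockout (-0.26, adjusted p = 0.0936, and 0.0499 without knockout replicate 1). Pgpep1, which removes the terminal pyroglutamate, had 24.3 and 23.6 CPM (-0.045). Rises were called for 4.0% of all tested genes.

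Factors known to act on Trh transcription in other tissues were examined as a list of 14. They comprised thyroid hormone and retinoid X receptors, their corepressors, and transcription factors of the cAMP, leptin, glucocorticoid and hypothalamic development pathways. Of these 12 were tested, while Thrb, the receptor gene that mediates feedback in the hypothalamus, and Sim1 had at most 3 counts. In edgeR 2 of the 12 fell (5.21% of all tested genes did) and 0 rose (4.0% did). Of the 12 genes 0 lie on chromosome 8, which held 453 of the 721 falls over all tested genes. A log2 fold change below 0 was found in 9 of the 12, and the median was -0.16.

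Egr1, an immediate early transcription factor gene, had 601 and 639 counts in WT against 551 and 474 in the knockout, or 42.9 and 33.0 CPM (-0.38, SE 0.108, adjusted p = 0.0404 in edgeR). Arnt2, the gene for the dimerization partner of SIM1, had 81 and 98 counts in WT against 72 and 45 in the knockout (-0.71, SE 0.213, adjusted p = 0.0493). Neither call held without WT replicate 2 (0.104 for Egr1 and 0.119 for Arnt2), without knockout replicate 2 (0.170 and 0.288) or in DESeq2 (0.117 and 0.239), and that of Egr1 was also lost without WT replicate 1 (0.284). The highest WT levels per kb in the list were those of Sp1 (34.4 CPM per kb), the corepressor gene Ncor1 (22.9) and the deacetylase gene Hdac3 (21.4), with log2 fold changes of -0.098, -0.22 and 0.13 that did not pass the test. Without knockout replicate 1, Sp1 (-0.30, adjusted p = 0.0464 in edgeR) and Ncor1 (-0.49, adjusted p = 1.79e-04) passed it. Creb1 (-0.14), Stat3 (0.040) and Thra (-0.19) did not pass it either.

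Trh was then set beside 62 other genes for neuropeptide and peptide hormone precursors. Most were at or below the detection limit, with 38 at 3 counts or fewer in every library and 11 of these at 0. The filter on low counts was passed by 13. The highest WT levels per kb among them were those of Pmch (6.68 CPM per kb), which codes for pro-melanin-concentrating hormone, and Chga and Calca (both 5.94), the genes for chromogranin A and for calcitonin and its related peptide. Trh stood at 286.1 CPM per kb on the same scale. Their log2 fold changes were -0.31, -0.014 and -0.33, and none passed the test.

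Of the 13 tested precursor genes 2 rose and 2 fell, against 4.0% and 5.21% of all tested genes. Vgf, which codes for a secreted granin-like precursor, had 24 and 26 counts in WT against 71 and 74 in the knockout (log2 fold change 1.43, adjusted p = 9.96e-04 in edgeR). Pdyn, the prodynorphin gene, had 28 and 36 counts in WT against 13 and 12 in the knockout (-1.45, adjusted p = 8.80e-03). Adm2, the gene for intermedin, had 28 and 46 counts in WT against 69 and 80 in the knockout (0.91, adjusted p = 0.0210). Npw, the gene for neuropeptide W, had 11 and 15 counts in WT against 3 and 4 in the knockout (-1.96, adjusted p = 0.0272). Vgf and Pdyn were DEGs, in opposite directions. Pdyn was above the adjusted p-value of 0.01 without any 1 of the 4 libraries (0.0116 to 0.0565), with upper-quartile scaling (0.0115), with a filter of at least 1 count (0.0156) and in DESeq2 (0.111).

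Of these 4 calls, that of Vgf held in DESeq2 (adjusted p = 5.87e-03) and without each library. Adm2 lost it in DESeq2 (0.137) and without WT replicate 1 (0.179), Pdyn in DESeq2 and without WT replicate 2 (0.0565), and Npw without any 1 of the 4 libraries (0.0667 to 0.191).

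**Figure D5:**
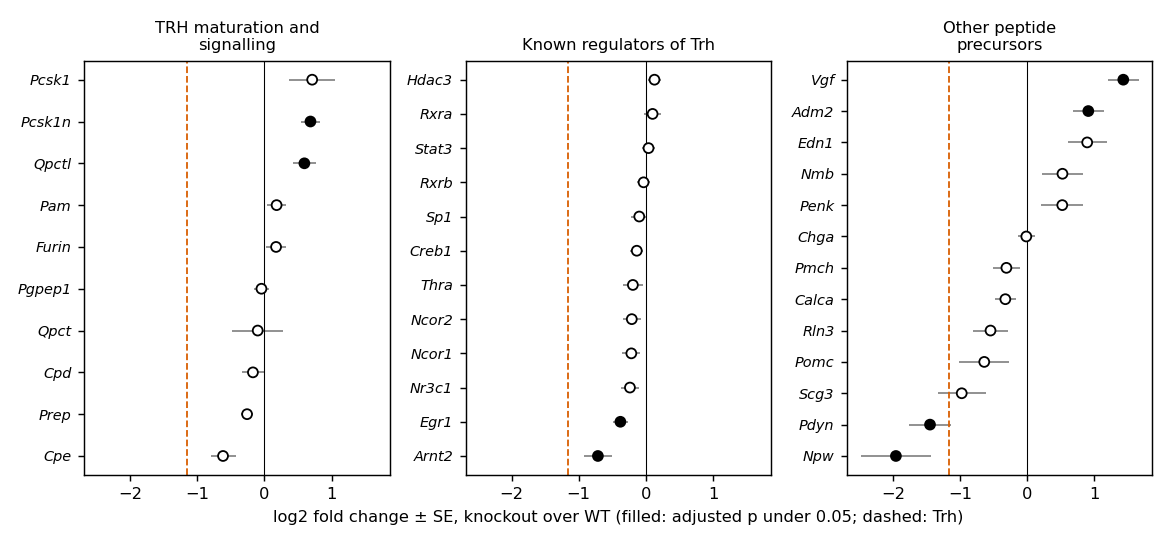
Log2 fold change with SE (knockout over WT) of the tested genes of each list, in 3 panels for TRH maturation and signalling, regulators of Trh and other peptide precursors; filled points passed an adjusted p-value of 0.05 and the dashed line marks Trh at -1.16. Pdyn and Npw are the members to the left of that line.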

How the data were processed

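The authors deposited 1 table of whole-number read counts per gene with the gene length in bp, made by aligning reads to mm10 with QuasR and HISAT2 and counting on UCSC Known Genes. The strand setting of the counting is not given in the sources used here. Of 24594 genes, 24570 were matched to RefSeq by Entrez identifier. Counts were tested with edgeR 4.0.16 in R 4.3.3 (filterByExpr with minimum count 10, TMM, quasi-likelihood test in its legacy form, genotype as the only term, two-sided, Benjamini-Hochberg over 13840 genes). All 4 libraries, which held 13771642 to 15608803 counts, entered the fit. CPM used TMM-scaled library sizes, and log2 CPM used a prior count of 2. The SE of a log2 fold change is its absolute value divided by the square root of the F statistic of the quasi-likelihood test. The procedure was tested on simulated data with large changes in well-counted genes, which did not cover small differences or low counts.

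Libraries were grouped by their labels. Trh, the gene lists and the rule for named genes were chosen with earlier results of these data known. Named were Trh, Smarca1, the 3 nearest tested genes on each side and called neighbours, the 2 genes on each side in WT CPM, the 5 genes most like Trh, genes with a larger CPM loss, and, of each list, called members and the 3 with the highest WT level per kb. Alternatives were other scalings and filters, DESeq2 1.42.0, another quasi-likelihood form, the replicate number as a block, other set sizes, and each library left out. Replicates differed by more than counting noise (chi-square per degree of freedom 5.48 in WT and 7.83 in the knockout) and were counted as separate samples.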

Additional observations from a re-analysis of the deposited data

How the results depend on the processing

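The log2 fold change of Trh lay between -1.20 and -1.11 over 14 alternatives, including scaling on genes outside chromosomes 8 and Y, chosen after seeing the data (-1.17), and the replicate number as a block (-1.16). That of Smarca1 lay between -4.41 and -4.19. The counts of called genes moved more. Among the regulators the 2 calls became 0 with upper-quartile scaling, 1 with library size alone, 0 with a filter of at least 1 count and 0 in DESeq2, and 0 to 5 with a library left out. The 2 calls among TRH maturation and signalling genes became 1 in DESeq2 and 1 to 3 with a library left out, and the 4 among peptide precursors became 1 and 2 to 4. The 1 called neighbour became 0 with 5 genes on each side, 3 with 20 on each side (Slc6a6 with Nup210 and Frmd4b, named after their values were seen) and 0 to 2 with a library left out. Among genes of similar WT level the 11 calls became 5 with 25 genes on each side, 4 without chromosome 8 genes (chosen after seeing the data) and 5 to 21 with a library left out, with 0 DEGs each time. The replicate number as a block left 2 pairs and 1 residual degree of freedom. It gave 37 calls among genes of similar level, 5 among neighbours, 4 among maturation genes, 4 among regulators and 6 among peptide precursors. The share of all tested genes called was counted for the main fit alone. The counts under the alternatives are therefore not read as results about these sets. The replicate numbers are not known to pair the libraries. Deviations of same-numbered libraries had a correlation of 0.196 over 13840 genes, and whether these libraries shared a step was not tested. The cause of these changes was not tested. Of 478 alternative values of 40 other named genes, 406 kept direction and side of the threshold, 37 lost the call, 14 gained it and 21 changed sign, all 21 from values that were not called. With upper-quartile scaling the values were 0.016 for Mrps25, 0.011 for Polr2b, 0.014 for Bub1b and 0.017 for Chga, and with library size alone 0.0012 for Mrps25, 0.00032 for Bub1b and 0.0026 for Chga. With a library left out, the values ranged from -0.094 to 0.069 for Mrps25, -0.059 to 0.019 for Polr2b, -0.095 to 0.059 for Bub1b, -0.30 to 0.077 for Sp1, -0.080 to 0.058 for Chga, -0.034 to 1.19 for Prickle2, -0.32 to 0.053 for Nr2c2, -0.0026 to 0.040 for Rnf10, -0.096 to 0.0065 for Pgpep1 and -0.49 to 0.018 for Ncor1. With 2 libraries of a genotype and 1 clone, the spread covers these libraries only.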
